A study of Mus musculus with 18 samples.

Results

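The nuclear-encoded genes of the mitochondrial respiratory chain were followed in cultures of mouse embryonic stem (ES) cells and stromal PA6 cells on Illumina MouseWG-6 v2.0 arrays. Members were chosen by name and detection alone. A gene was taken if its array name began with NDUF, UQCR, ATP5 or COX4 to COX8, or was SDHA, SDHB, SDHC or SDHD, and if at least 1 of its probes had a detection p-value under 0.05 on at least 3 of the 18 arrays. The array carried 81 such names on 119 probes, and 75 genes with 102 probes passed, out of 16446 genes and 22987 probes that passed the same filter in all. The series compared 6 groups of 3 arrays at day 3: ES cells grown on PA6 monolayers (ES/PA6), or PA6 cells alone, each in serum-free medium without growth factors (-GFs), with 20 ng/ml recombinant FGF2, or with 10 ng/ml recombinant BMP4. The ES cells carried an enhanced green fluorescent protein reporter knocked in under the tau promoter, and PA6 is an established line of mouse bone marrow stroma. RNA came from whole wells, so a co-culture array holds transcripts of both cell types, and fewer cells of a type cannot be told apart from less RNA per cell. The question of the series was how FGF2 and BMP4 act on ES cells and on stroma while ES cells take an endothelial fate.

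The respiratory chain sits in the inner mitochondrial membrane. Complex I (NADH dehydrogenase, the NDUF genes) and complex II (succinate dehydrogenase, the SDH genes) feed electrons to ubiquinone, complex III (the UQCR genes) passes them to cytochrome c, complex IV (cytochrome c oxidase, the COX genes) hands them to oxygen, and complex V (ATP synthase, the ATP5 genes) uses the resulting proton gradient to make ATP. A few subunits, encoded by mitochondrial DNA, form the catalytic cores together with nuclear ones. Several small subunits of complex IV exist as isoforms from separate genes, of which one form is used in most tissues and another in heart and skeletal muscle or in testis.

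The 75 genes comprised 33 of complex I, 3 of complex II, 5 of complex III, 15 of complex IV and 14 of complex V. Another 2 were counted here as assembly factors of complex I (NDUFAF1, and NDUFA12L, now called Ndufaf2). The last 3 were captured by their names without being subunits (COX4NB, now Emc8, ATP5SL, now Dmac2, and ATP5S, now Dmac2l). Any role of these 3 in assembly was not considered in the grouping. NDUFA4 was counted with complex IV, where it is now placed, and so was COX7A2L, a factor that joins complexes III and IV into supercomplexes. The probes of COX4I2, COX7B2, NDUFS1, SDHA and UQCRFS1 were detected on 0 arrays and that of UQCRQ on 1, so these genes were not measured, although SDHA, NDUFS1 and UQCRFS1 encode core subunits. Between 73 and 74 members were detected on each co-culture array and between 69 and 71 on each PA6 array. Most members gave bright signals, with a median level of 13.19 on the log2 scale of normalized intensity against 8.28 for all genes tested, and their median residual SD between arrays of a group was 0.118 against 0.242. Brightness differs between probes for reasons other than transcript number, so each gene was compared only with itself. Markers of pluripotent cells had a summed intensity of 21070 to 42820 on the co-culture arrays and 297 to 404 on the PA6 arrays, and that of 8 stromal markers was 31420 to 59900 and 80990 to 104800, with POSTN undetected in all 3 co-culture groups. Differences were tested with limma in 1 fit of the 6 group means, and a call means a p under 0.1 after Benjamini-Hochberg adjustment over all genes. A second rule, that of the study's methods, also asks for an absolute log2 fold change over 1.

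Some isoform genes of complex IV were read in 1 culture type and not, or hardly, in the other. COX6B2 and COX8C passed the detection filter through co-culture arrays alone, COX7A1 through 9 co-culture arrays and 1 PA6 array, and COX8B through PA6 arrays alone, so these genes had to differ between the culture types, and their p-values are given as a description. COX7A1, the isoform of subunit VIIa used in heart and skeletal muscle, read 10.27, 9.79 and 10.59 in ES/PA6 -GFs cultures, 11.35, 11.48 and 11.13 with FGF2, and 10.94, 10.68 and 11.04 with BMP4. The 9 PA6 arrays lay between 5.25 and 6.55, and only 1 of them, a BMP4 array, was above background. COX6B2, known as the testis isoform of subunit VIb, read 10.42, 10.36 and 10.77 in ES/PA6 -GFs cultures, and all 9 co-culture arrays lay between 10.36 and 11.00. In PA6 cells it was not well above background on any array, with values of 4.92 to 5.60. COX8C, the testis isoform of subunit VIII, read 7.32, 6.79 and 7.06 in ES/PA6 -GFs cultures and 6.65 to 7.97 over all co-cultures. Its 9 PA6 arrays, at 4.79 to 5.58, were all below background. No co-culture array of these 3 genes overlapped with a PA6 array. Without growth factors the means were 10.52 against 5.09 for COX6B2, at least 18.6-fold higher in co-culture (limma, adjusted p = 1.01e-12), 10.22 against 5.86 for COX7A1, at least 15.1-fold higher (adjusted p = 2.3e-10), and 7.06 against 4.94 for COX8C, at least 1.69-fold higher (adjusted p = 2.42e-06). These bounds set the mean of the co-cultures against the dimmest signal that still counted as detected on each PA6 array.

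COX8B, the isoform of subunit VIII found in muscle and brown fat, ran the other way. It was undetected on all 9 co-culture arrays, at 4.94 to 5.32. PA6 -GFs arrays read 5.51, 5.71 and 6.49 (1 of 3 detected), PA6 FGF2 arrays 4.96, 5.14 and 5.32 (0 detected), and PA6 BMP4 arrays 8.26, 7.36 and 7.98 (all 3 detected). BMP4-treated PA6 cells were therefore the only group in which every array read this gene above background, and none of their arrays overlapped with those of another group. COX6A2, the muscle isoform of subunit VIa, stayed near background throughout: 2 of 3 arrays were detected in ES/PA6 -GFs, 3 of 3 with FGF2, 1 of 3 with BMP4, and 1 of 9 in PA6 cells. Its highest values were 5.95, 6.84 and 7.61 in ES/PA6 FGF2, a spread (SD 0.829) larger than its difference of 0.79 from the -GFs co-cultures (adjusted p = 0.263). The forms used in most tissues were read on all arrays, and for 3 of the 4 the call depended on the scaling. COX6A1 was 0.31 ± 0.101 (SE) higher on the log2 scale in ES/PA6 -GFs than in PA6 -GFs (adjusted p = 0.0137), COX6B1 differed by -0.16 (95% interval -0.48 to 0.16, adjusted p = 0.373), COX7A2 by 0.37 (-0.1 to 0.85, adjusted p = 0.156) and COX4I1 by -0.2 (-0.47 to 0.08, adjusted p = 0.191). When arrays were scaled to a common median instead, COX6A1 was at -0.01 and not called, COX6B1 (-0.43) and COX4I1 (-0.52) were called lower in co-culture, and COX7A2 was at 0.26 and not called.

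**Figure D1:**
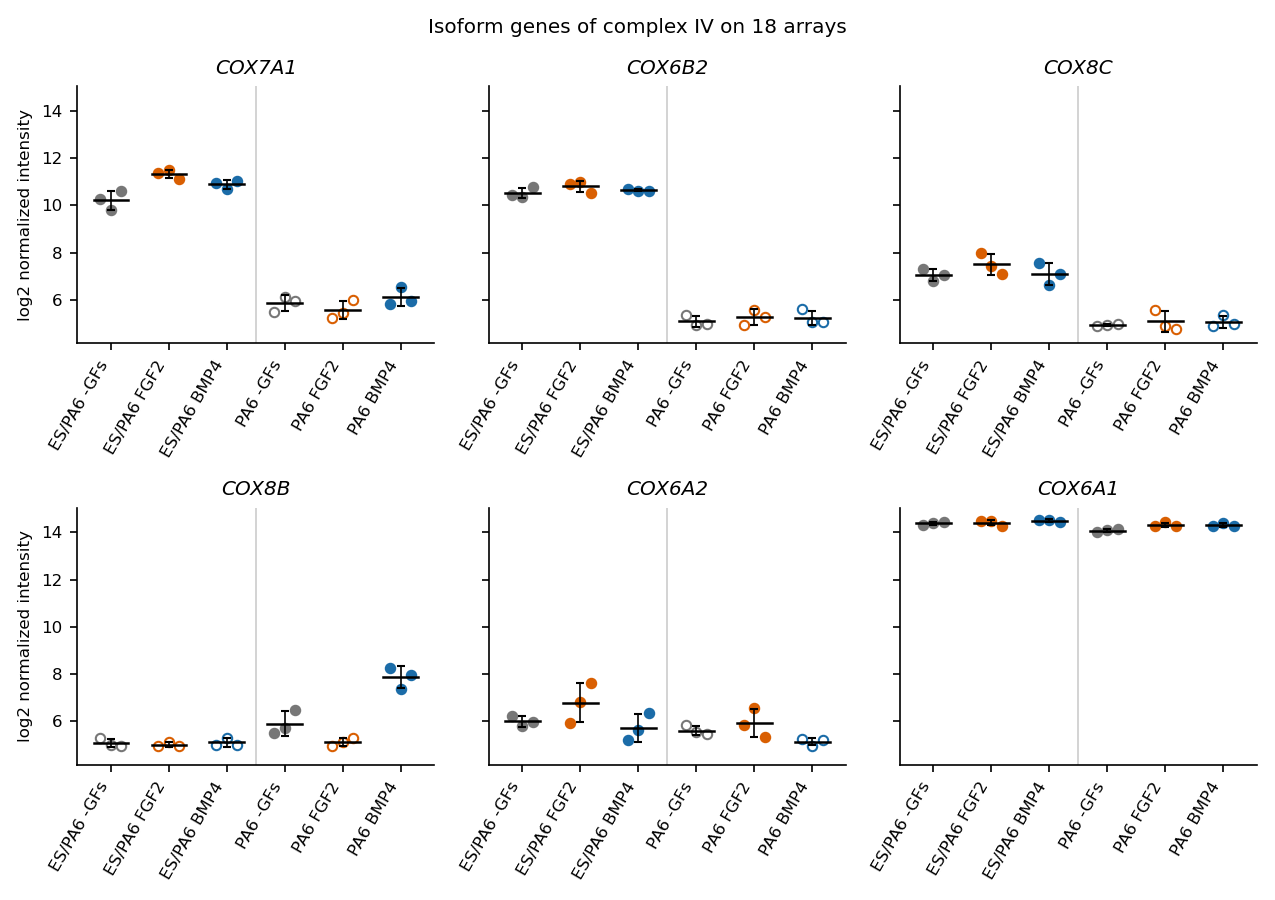
Log2 normalized intensity (y axis) of 6 isoform genes of complex IV in the 6 groups (x axis), with 1 point per array, horizontal bars for the group means and vertical bars for the SD (n = 3). Open points mark groups in which no array was above background. COX7A1, COX6B2 and COX8C lie high in all co-cultures, COX8B in PA6 BMP4 arrays alone (7.36 to 8.26), and COX6A1 is bright in all groups.

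The promoters of COX7A1, COX6B2 and COX8B are shown beside those of COX6A1, the form of subunit VIa used in most tissues, and of SDHB, the iron-sulfur subunit of complex II, because nuclear respiratory genes are known for shared binding sites in their promoters and these isoform genes were read in 1 culture type or group and not in others. The promoter table holds no entry for Cox8c or Cox6a2. Each line gives the 250 bases before the annotated start, 5′ to 3′ on the gene's strand, from RefSeq on GRCm38.p6. Capitals mark matches on either strand to the motifs of NRF1 (GCGCATGC), ETS/GABP (CCGGAAG), ERR (AAGGTCA) and YY1 (AAGATGGC), factors known to act on respiratory genes.
Cox7a1, chr7:30183921-30184170, plus strand: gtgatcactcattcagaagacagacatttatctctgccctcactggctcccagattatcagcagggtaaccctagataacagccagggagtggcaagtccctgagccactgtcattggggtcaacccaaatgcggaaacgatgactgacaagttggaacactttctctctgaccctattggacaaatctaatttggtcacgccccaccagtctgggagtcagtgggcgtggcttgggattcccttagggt
Cox6b2, chr7:4753095-4753344, minus strand: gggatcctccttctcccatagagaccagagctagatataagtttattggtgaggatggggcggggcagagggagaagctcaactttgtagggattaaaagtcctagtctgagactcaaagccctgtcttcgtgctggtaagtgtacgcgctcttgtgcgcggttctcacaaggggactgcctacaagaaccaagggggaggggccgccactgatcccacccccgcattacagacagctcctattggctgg
Cox8b, chr7:140900447-140900696, minus strand: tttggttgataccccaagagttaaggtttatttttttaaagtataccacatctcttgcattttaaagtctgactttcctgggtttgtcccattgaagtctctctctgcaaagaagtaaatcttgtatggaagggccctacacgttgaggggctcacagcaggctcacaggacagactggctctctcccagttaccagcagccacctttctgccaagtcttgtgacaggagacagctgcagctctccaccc
Cox6a1, chr5:115348959-115349208, minus strand: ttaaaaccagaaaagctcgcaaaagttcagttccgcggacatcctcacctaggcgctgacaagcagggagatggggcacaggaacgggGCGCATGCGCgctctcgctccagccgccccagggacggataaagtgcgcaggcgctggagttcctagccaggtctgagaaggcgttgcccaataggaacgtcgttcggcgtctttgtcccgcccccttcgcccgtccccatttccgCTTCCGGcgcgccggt
Sdhb, chr4:140961021-140961270, plus strand: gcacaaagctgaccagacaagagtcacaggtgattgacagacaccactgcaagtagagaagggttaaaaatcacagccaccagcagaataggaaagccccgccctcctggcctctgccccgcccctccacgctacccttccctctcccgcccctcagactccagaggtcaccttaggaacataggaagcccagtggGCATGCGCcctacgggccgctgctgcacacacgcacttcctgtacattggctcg
These letters were not found in the windows of Cox7a1, Cox6b2 and Cox8b, which says nothing about the factors themselves. Over 300 bases around the start, they were not found for COX5A, COX5B, COX7A2, COX7A2L, COX7B and NDUFA4 either. These genes of complex IV were read on all arrays, so the absence of matches was not particular to the isoform genes shown. COX6B1 held an ETS/GABP match. The Cox6a1 window holds the NRF1 letters on both strands, which overlap, and an ETS/GABP match close to the start, and the Sdhb window holds 1 NRF1 match. The promoter table held 63 of the 75 members. Over 300 bases around the start, 10 of these 63 (15.9%) matched the NRF1 letters against 3.05% of all 27025 genes in the table, 16 (25.4%) ETS/GABP against 9.93%, 7 (11.1%) ERR against 5.38% and 11 (17.5%) YY1 against 3.19%. The median GC content of the upstream windows was 56.4% for members and 52% for all genes. A match is a stretch of letters and was not tested as a site.

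Across the whole family, the ES/PA6 and PA6 cultures without growth factors differed in 56 of 75 members (74.7%), close to the 71.2% of all genes that were called in this comparison. By direction, 45 members (60%) were higher in co-culture against 33% of all genes, and 11 (14.7%) were lower against 38.2%. The median difference of the members was 0.37 on the log2 scale, with 53 of 75 above 0, while that of all genes was -0.11, with 45.3% above 0. With the fold limit of the study's methods, 15 members were called, 12 higher and 3 lower, against 39% of all genes. The tilt toward higher values depended on the scaling. When arrays were only brought to a common median after background correction, 23 members (30.7%) were higher and 22 (29.3%) lower, against 31.3% and 38.6% of all genes, the members' median fell to 0.14 and that of all genes was -0.1. Of the calls above, 22 higher and 11 lower ones held under the 4 scalings tried. These values moved with the larger share of pluripotent and the smaller share of stromal transcripts, as 6 of 6 pluripotent markers were called higher and 7 of 8 stromal markers lower in co-culture, and the part of cell makeup in them was not tested.

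**Figure D2:**
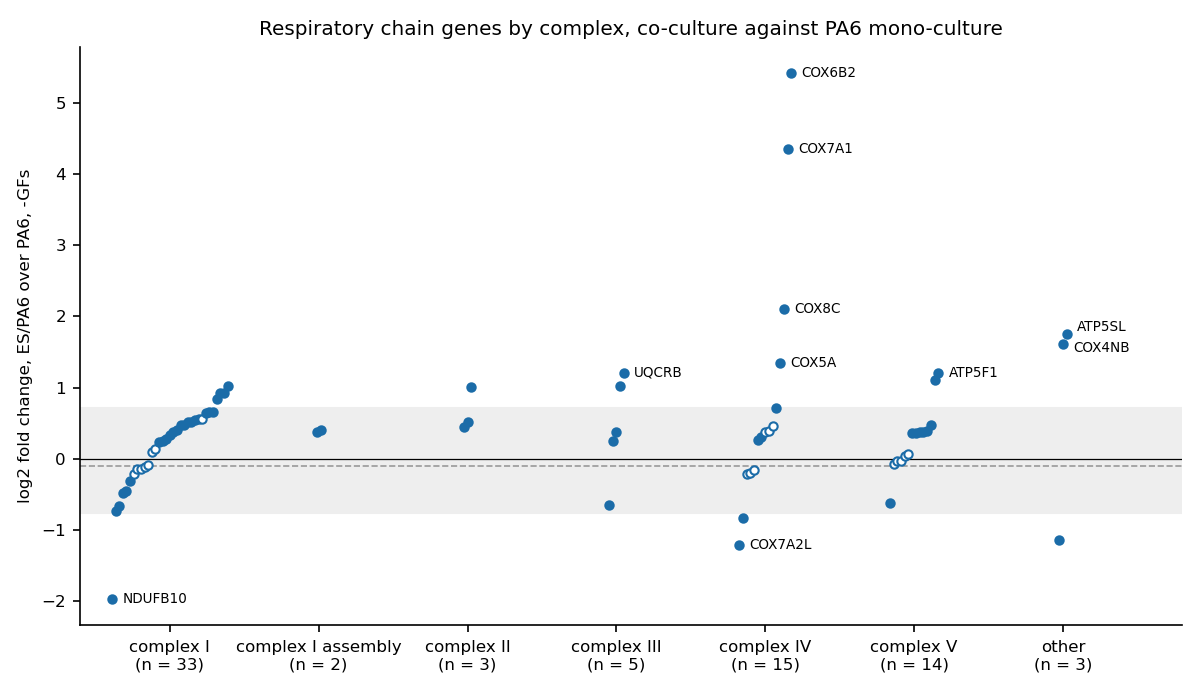
Log2 fold change of each member, ES/PA6 -GFs over PA6 -GFs (y axis), by complex (x axis), with called members filled. The grey band and dashed line give the quartiles and median (-0.11) of all 16446 genes tested, and most members lie inside the band, with COX6B2, COX7A1 and COX8C far above it and NDUFB10 below.

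In complex I, 19 of 33 genes were higher in co-culture and 6 lower, with a median difference of 0.33. Among the genes that rose were NDUFA9 (0.93 ± 0.101), NDUFS6 (0.92 ± 0.111) and NDUFV1 (0.84 ± 0.105), which encodes the flavin-binding subunit that oxidizes NADH. Of the core subunits with iron-sulfur clusters, NDUFS8 was higher by 0.41 ± 0.115 (adjusted p = 0.00451), and NDUFS7 differed by -0.15 (95% interval -0.38 to 0.08) and was not called. Under median scaling NDUFS8 was at 0.19 and not called (adjusted p = 0.126), and NDUFS7 was called lower, at -0.38. NDUFB10 fell by 1.97 (SE 0.226, adjusted p = 1.01e-06): it read 10.06, 10.26 and 9.64 in ES/PA6 -GFs and 11.95, 11.89 and 12.04 in PA6 -GFs. Its second probe moved the opposite way, by 0.67 (adjusted p = 0.00249 over all probes), so the direction of this gene is not settled. Among the 21 members with more than 1 probe, 17 had all probes in the same direction and 3 had called probes in both directions. The other 2 of these were NDUFB8, at 1.02 and, on its dimmer probe, -0.91, and ATP5J, a stalk subunit of complex V, at 0.48 and -0.91. Their directions are not settled either. Both genes counted here as assembly factors were higher, NDUFAF1 by 0.38 ± 0.113 and NDUFA12L by 0.4 ± 0.116. The calls of these 2 genes were lost under median scaling (0.18 and 0.19, adjusted p = 0.207 and 0.166).

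All 3 measured genes of complex II were higher in co-culture. SDHB read 11.99, 11.83 and 12.05 in ES/PA6 -GFs and 11.08, 10.8 and 10.95 in PA6 -GFs, with no overlap, a rise of 1.01 ± 0.174 (adjusted p = 7.87e-05). A second bright SDHB probe gave 1.01 as well. SDHC and SDHD, the membrane anchors, were higher by 0.45 ± 0.105 and 0.52 ± 0.227, and the arrays of SDHD overlapped between the groups. Under median scaling SDHB alone of the 3 was called, and the median of the complex was 0.41 in place of 0.52. In complex III, UQCRB rose by 1.21 ± 0.177 and UQCRC1, a core protein, by 1.02 ± 0.106 (12.95, 12.99 and 13.16 against 11.91, 12.07 and 12.06), while UQCRC2, its partner in the core, rose by 0.37 ± 0.112 (0.14 and not called under median scaling). UQCRH, the hinge protein next to cytochrome c1, fell by 0.65 (SE 0.0941), from 15.41, 15.32 and 15.41 in PA6 -GFs to 14.67, 14.77 and 14.74 in ES/PA6 -GFs. Subunits of this complex thus differed in opposite directions without overlap between the arrays of the groups.

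In complex IV, 7 of 15 genes were higher and 2 lower. Besides the isoform genes, COX5A rose by 1.34 ± 0.127 (14.41, 14.22 and 14.38 against 13.16, 12.89 and 12.93, adjusted p = 1.14e-07), more than its partner subunit COX5B (0.71 ± 0.103). COX7A2L fell by 1.21 (SE 0.0935, adjusted p = 1.06e-08), from 14.48, 14.43 and 14.49 in PA6 -GFs to 13.29, 13.23 and 13.24 in ES/PA6 -GFs, and its second probe fell by 2.47. COX8B, not above background in co-culture, was at least 1.01-fold lower there (5.08 against 5.90, adjusted p = 0.00575). In complex V, 8 of 14 genes were higher and 1 lower. ATP5F1, the peripheral stalk subunit now called Atp5pb, rose by 1.21 ± 0.137 and ATP5A1, the alpha subunit of the catalytic head, by 1.11 ± 0.227. The catalytic beta subunit ATP5B rose by 0.38 ± 0.107 and the gamma subunit ATP5C1 by 0.36 ± 0.118. ATP5G2 and ATP5G3, separate genes for the same ring subunit, rose by 0.36 ± 0.169 and 0.39 ± 0.104. ATP5B and ATP5G3, with mean levels of 15.78 and 15.49, lay near the upper end of the scale, where differences can be compressed. The sizes of their rises are therefore not set against those of other subunits. Under median scaling the calls of ATP5B, ATP5C1, ATP5G2 and ATP5G3 were lost, with values of 0.09 to 0.13. ATP5E, the epsilon subunit, fell by 0.63 (SE 0.145, adjusted p = 0.00112). Under median scaling complex V had 2 genes higher and 4 lower with a median of 0.09, complex I had 11 each way (0.11), complex III 2 higher and 1 lower (0.14) and complex IV 5 each way (0.26). The 3 genes that are not subunits included some of the larger shifts: ATP5SL rose by 1.76 ± 0.149 and COX4NB by 1.61 ± 0.142, and ATP5S fell by 1.15 (SE 0.103).

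**Figure D3:**
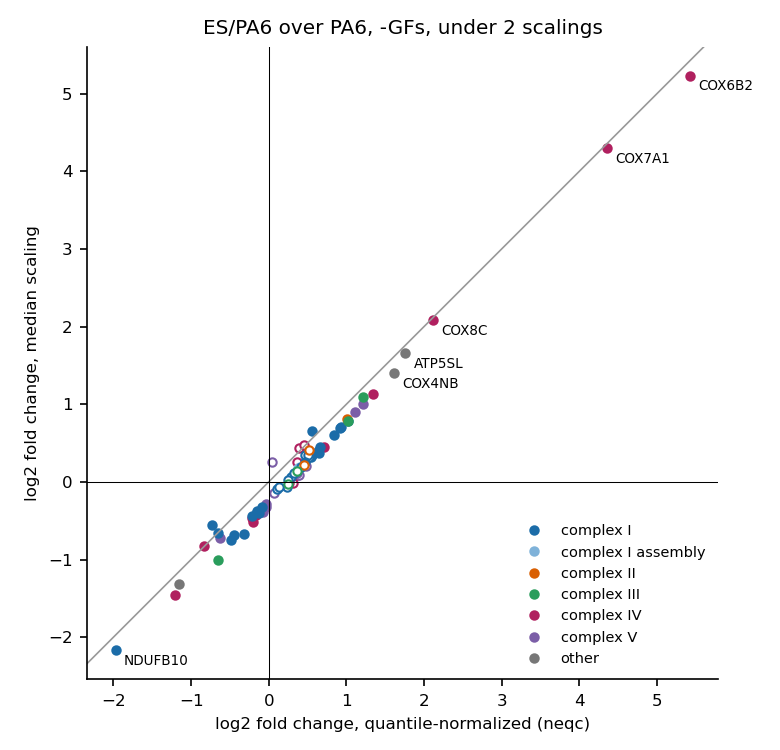
Log2 fold change of the 75 members, ES/PA6 -GFs over PA6 -GFs, after quantile normalization with background correction (x axis) and after median scaling (y axis), with members called under median scaling filled and the diagonal marking equal values. Most points lie below the diagonal, so that 45 higher and 11 lower calls became 23 and 22.

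Genes of the same machinery that the name rule did not take were read from separate lists. The 8 subunit genes encoded by mitochondrial DNA gave 0 calls in any comparison (limma), and their median difference between culture types was -0.07. MT-CYTB differed by 0.01 ± 0.0921 and MT-CO2 by -0.2 ± 0.221. The group means of MT-ND4 and MT-CYTB, 15.74 to 15.99, lay near the upper end of the scale. Those of MT-ND6, 5.76 to 6.74, lay near background. Differences can be compressed at either end, so the absence of calls does not measure equal levels. Of 19 electron carriers and assembly factors, 12 were higher in co-culture and 4 lower, among them CYC1 (1.79 ± 0.118), the cytochrome c1 of complex III, CYCS (1.31 ± 0.129), the somatic cytochrome c, and SURF1 (-1.36 ± 0.139), an assembly factor of complex IV. Of 13 regulators of mitochondrial biogenesis, 7 were higher and 2 lower. GABPA rose by 1.04 ± 0.155 and TFAM, which packages and transcribes mitochondrial DNA, by 0.85 ± 0.112, whereas NRF1 (-0.26 ± 0.16) and ESRRA (0.09 ± 0.133) were not called. Of 16 genes of the tricarboxylic acid cycle, 9 were higher and 4 lower. In this comparison 33% of all genes were called higher and 38.2% lower. These lists were not recomputed under median scaling, on which the tilt of the members depended.

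Within the co-cultures few members passed the test for a growth factor. With FGF2, 1 of 75 members (1.33%) was called, against 9.05% of all genes, and the members' median difference was 0.03. That gene was COX7A1. The FGF2 values given above lay over all 3 -GFs values without overlap, and the rise was 1.1 ± 0.245 (adjusted p = 0.0116), which also passed the fold limit of the study's methods (3.34% of all genes). Within the numbered sets of wells the rise was 1.08, 1.69 and 0.54. Markers of the cell types moved beside it, as the summed intensity of 6 pluripotent markers was 21070 to 31190 without growth factors and 35020 to 42820 with FGF2, and that of 8 stromal markers was 50840 to 59900 and 35540 to 47210. Of these, 2 pluripotent markers were called higher and 1 lower, and 1 stromal marker lower, and their part in the rise of COX7A1 was not tested. With BMP4, 0 of 75 members were called by limma, against 1.7% of all genes, and 2 had an unadjusted p under 0.05. COX7A1 was again above all -GFs arrays with BMP4, by 0.67 (95% interval 0.15 to 1.19), with an adjusted p of 0.282. FGF2 and BMP4 co-cultures differed in 0 members by limma, against 7.48% of all genes, with 5 at an unadjusted p under 0.05, and COX7A1 was 0.43 higher with FGF2 (-0.09 to 0.95, adjusted p = 0.4). Under median scaling this last count was 9, all higher with FGF2, against 8.79% of all genes. The members' median went from 0.07, with 53 of 75 above 0, to 0.23, with 70 above 0. The median of all genes moved as well, from 0, with 50.6% of them above 0, to 0.09.

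The labels describe a biological replicate as parallel wells, and same-numbered co-culture arrays deviated together, so the fit was repeated with the replicate number as a block. With this block within each culture type, 5 members were called for FGF2 in co-culture, against 15.2% of all genes: COX7A1 (adjusted p = 0.00479), NDUFB4, an accessory subunit of complex I (0.73 ± 0.114, adjusted p = 0.00128), COX5A (0.36 ± 0.122), UQCRC1 (0.28 ± 0.0903) and COX4NB, which fell by 0.41 (SE 0.142). NDUFB4 read 8.72, 7.63 and 8.15 without growth factors, 9.42, 8.53 and 8.75 with FGF2, and 9.11, 8.2 and 8.4 with BMP4. The groups overlapped, but in each numbered set the FGF2 array was the highest and the -GFs array the lowest, with FGF2 above -GFs by 0.7, 0.9 and 0.59. For BMP4, 2 members were called with the block, against 6.38% of all genes: NDUFB4 (0.4 ± 0.114, adjusted p = 0.0805) and ATP5E, which fell by 0.49 (SE 0.13, adjusted p = 0.0612). For FGF2 against BMP4 in co-culture, 3 were called, against 14.9% of all genes, all higher with FGF2: COX6A2 (1.08 ± 0.315), NDUFB4 (0.33 ± 0.114) and NDUFV2 (0.29 ± 0.0963). The labels give each replicate as wells of both culture types, and with a block shared by both, a setting added after seeing the data, fewer of these calls held. COX7A1 (adjusted p = 0.0105), NDUFB4 (0.0113) and COX4NB (0.0912) were called for FGF2, against 11.9% of all genes, 0 members for BMP4, against 3.19%, where NDUFB4 had an adjusted p of 0.274 and ATP5E of 0.111, and NDUFV2 alone (0.0957) for FGF2 against BMP4, against 10.7%.

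In PA6 cells alone, FGF2 changed 5 of 75 members (6.67%), against 18.7% of all genes. One was higher, against 9.19% of all genes, and 4 were lower, against 9.55%. The family as a whole did not lean lower: the members' median difference was 0.1, with 50 of 75 above 0, against -0.01 for all genes. None of them passed the fold limit, and 10 members had an unadjusted p under 0.05. COX7A2L read 14.07, 14.1 and 14 with FGF2 against 14.48, 14.43 and 14.49 without, a fall of 0.41 (SE 0.0935, adjusted p = 0.00701). Its second probe fell by 0.47 but was not called (adjusted p = 0.225 over all probes). NDUFA6, an accessory subunit of complex I, read 13.91, 13.93 and 14.17 with FGF2 against 14.42, 14.48 and 14.47, a fall of 0.45 (SE 0.117, adjusted p = 0.0144). UQCRH read 15.14, 15.04 and 15.05 against 15.41, 15.32 and 15.41, a fall of 0.3 (SE 0.0941, adjusted p = 0.0424). In these 3 genes the FGF2 arrays lay below all -GFs arrays. UQCRB, a small subunit of complex III, read 9.25, 9.67 and 9.2 with FGF2 against 8.67, 9.11 and 8.83, a rise of 0.5 ± 0.177 (adjusted p = 0.0706). COX8B was called lower (5.14 against 5.90, adjusted p = 0.0412). However, it was undetected on all 3 FGF2 arrays and detected on 1 of 3 -GFs arrays, so the size of this difference was not measured. In limma over all probes, dimmer probes of NDUFB8 (0.53, adjusted p = 0.0632) and SDHB (-0.38, adjusted p = 0.0992) were called as well. The probes used for NDUFB8 and SDHB read 0.11 and 0.02 and were not called. The calls of UQCRH, UQCRB and COX8B were lost when single arrays were left out, with adjusted p of 0.118, 0.157 and 0.197 without the third PA6 -GFs array and of 0.128, 0.298 and 0.106 without the second PA6 FGF2 array. The call of UQCRB was also lost under median scaling (adjusted p = 0.119), and those of UQCRB and COX8B with the PA6 arrays fitted alone (0.108 for both). UQCRH was also lost without the first PA6 -GFs array (adjusted p = 0.121) and the third FGF2 array (0.11), UQCRB without the first PA6 -GFs array (0.246) and COX8B without the first FGF2 array (0.126). With the replicate block 9 members were called, against 25.4% of all genes, including all 5 of these. Of the 9, 5 were higher with FGF2, so the direction of the calls depended on the fit.

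**Figure D4:**
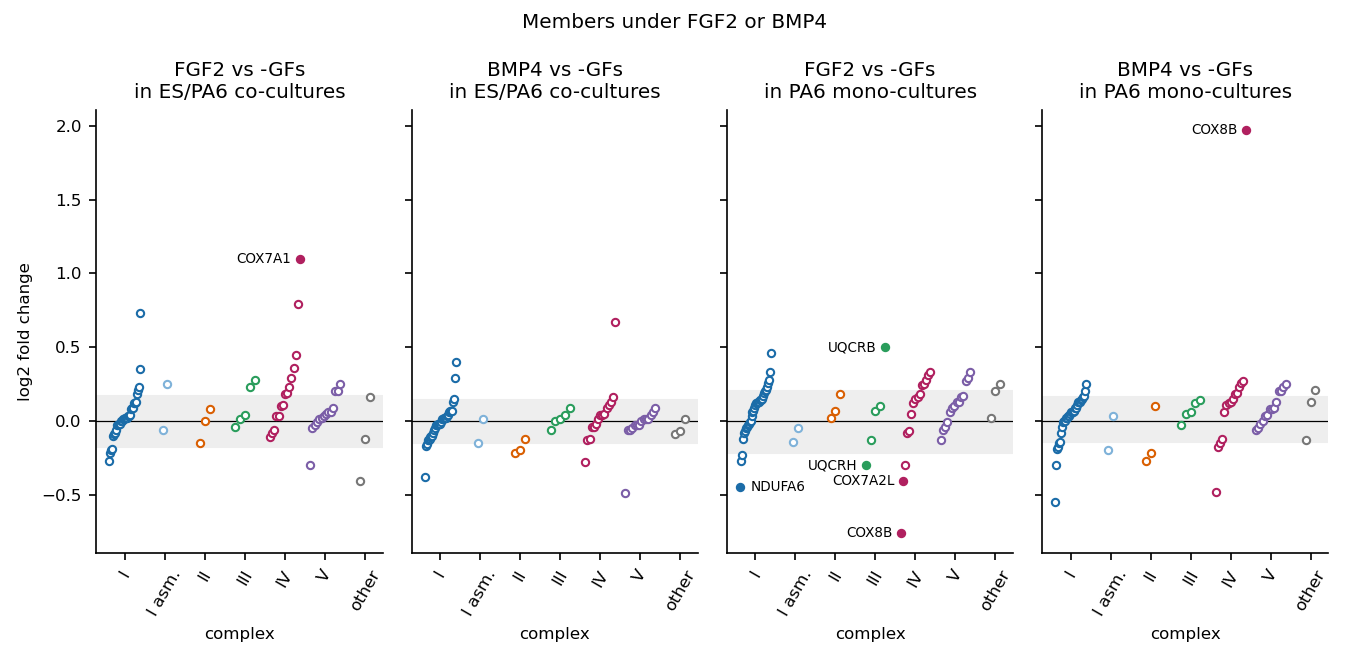
Log2 fold change of each member (y axis) by complex (x axis) in the 4 comparisons of a growth factor with -GFs, with called members filled and named and a grey band for the quartiles of all genes. Nearly all members lie within 0.5 of 0, and COX7A1 (1.1, FGF2 in co-culture) and COX8B (1.97, BMP4 in PA6 cells) stand apart.

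BMP4 changed 1 of 75 members in PA6 cells, against 3.84% of all genes. This was COX8B, whose 3 BMP4 arrays, given above, lay over all -GFs arrays: the mean went from 5.9 ± 0.516 to 7.87 ± 0.461 (SD, n = 3), a rise of 1.97 ± 0.238 (adjusted p = 0.000335), past the fold limit as well (1.41% of all genes). The gene was detected on 1 of 3 -GFs arrays and on 4 arrays in all, so it passed the filter through the group where it is high, and the size of the rise is uncertain. With the replicate block 2 members were called, against 7.73% of all genes, as NDUFB4 was lower by 0.55 (SE 0.114, adjusted p = 0.0161). Between FGF2 and BMP4 in PA6 cells, 3 members differed, against 20.3% of all genes, all lower with FGF2: COX8B, at least 3.05-fold (5.14 against 7.87, adjusted p = 1.05e-06) and the only one past the fold limit (5.82% of all genes), UQCRH by 0.37 (SE 0.0941, adjusted p = 0.0142) and COX7A2L by 0.29 (SE 0.0935, adjusted p = 0.0503). The call of COX7A2L was lost without the third FGF2 array (adjusted p = 0.142) and without the second or the third BMP4 array (0.127 and 0.121), and both UQCRH (-0.24, adjusted p = 0.161) and COX7A2L (-0.18, adjusted p = 0.33) were lost under median scaling. With the block 9 were called, 4 of them higher with FGF2, against 27.3% of all genes. The direction of the calls thus depended on the fit. In the main fit 46 of 75 members lay above 0, against 48.2% of all genes, and under median scaling 60 members did. With that change the members' median went from 0.02 to 0.09 and that of all genes from -0.01 to -0.03.

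COX8B moved together with markers of fat cells. The summed intensity of 6 adipocyte markers was 10270 to 13380 on PA6 -GFs arrays, 1553 to 1822 with FGF2 and 26570 to 58720 with BMP4, in the same order as COX8B. Of the 6, 4 were called lower with FGF2 and 1, LPL, higher with BMP4 (1.26 ± 0.303, adjusted p = 0.0368), while ADIPOQ read 1.85 ± 0.658 (adjusted p = 0.198). FABP4 and UCP1, the uncoupling protein that defines brown fat, were undetected in every group, and CIDEA was undetected in all 3 PA6 groups. In the co-cultures the same sum was 2379 to 4712, 1758 to 2022 and 6437 to 28370, while COX8B stayed undetected. Of the muscle markers, MYOD1 and CKM were undetected in every group and ACTC1 in all 3 PA6 groups. DES had means of 6.2, 6.36 and 6.95 in PA6 -GFs, FGF2 and BMP4 cultures, with 1, 2 and 3 of 3 arrays detected, and MYOG 6.41, 6.43 and 6.32, with 2, 3 and 1 detected, and neither was called for BMP4 (DES 0.75 ± 0.237, adjusted p = 0.13). The summed intensity of the 3 measured muscle markers was 190 to 198.7, 173.5 to 230.9 and 187.8 to 278.4 in these groups. The part of fat or muscle cells in the COX8B values was not tested.

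Whether a growth factor acted differently in the culture types was tested as the difference of the responses. For FGF2, 2 members differed, against 15% of all genes. COX7A1 responded by 1.4 ± 0.347 more in co-culture than in PA6 cells (adjusted p = 0.0171), past the fold limit (7.39% of all genes), where the PA6 response was -0.3 between groups that were both below background. No PA6 response of this gene could be measured, so the value of 1.4 is no measured size of a difference in response. COX4NB responded by -0.66 ± 0.201 (adjusted p = 0.0465), from -0.41 in co-culture and 0.25 in PA6 cells. Its call was lost without the third ES/PA6 -GFs array (adjusted p = 0.103), the first ES/PA6 FGF2 array (0.104) or the second PA6 FGF2 array (0.119). For BMP4, 1 member differed, against 0.711% of all genes: COX8B, by -1.93 ± 0.336 (adjusted p = 0.0211), which passed the fold limit as well (0.559% of all genes). The gene was below background in both co-culture groups and on 2 of 3 PA6 -GFs arrays and passed the filter through the PA6 BMP4 arrays, so this value is no measured size of a difference in response. With the replicate block, 7 members were called for FGF2, against 23.5% of all genes, and 2 for BMP4, against 4.1%. In both cases the added genes included NDUFB4, at 1 ± 0.161 and 0.95 ± 0.161 (adjusted p = 0.00143 and 0.016).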

How the data were processed

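The deposited table holds probe intensities without normalization and a detection p-value for each probe of the 18 arrays, which the authors obtained with GenomeStudio 2011.01 per the labels. Raw intensities ran from 55.5 to 72879. In total 5 stray lines, whose columns were shifted, were left out. In R 4.3.3 with limma 3.58.1, intensities were background-corrected from the detection p-values and quantile-normalized (neqc, offset 16), and log2 values were computed from the deposited intensities. Probes needed a detection p-value under 0.05 on at least 3 arrays, and each gene was represented by its probe with the highest mean. One linear model with 6 group means gave moderated tests with Benjamini-Hochberg adjustment over 16446 genes. The threshold of 0.1 and the fold limit follow the study's methods, which used spline-normalized values, tried here as an alternative. SE and intervals (95%) come from this fit. Precision is limited by having 3 arrays in a group.

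Same-numbered co-culture arrays deviated together (correlation 0.325 to 0.521 over 9 pairs), PA6 arrays less (0.0628 to 0.164), and arrays of different culture types from -0.0248 to 0.175. The labels give the pairing, as each biological replicate held 1 well of each of the 6 conditions. The rule that took the members used names and detection alone, but this rule and the lists were chosen with earlier results of these data known. Named were isoform pairs, SDH genes, core subunits, assembly factors, and in each comparison the called members with the largest changes, up to 5 in each direction. Others, such as NDUFA9, NDUFS6, ATP5E, COX6A2 with the block, NDUFB4 and the genes of opposed probes, were named after their values were seen. The limma fit without a block was tested on simulated log2 values with known changes, for FGF2 against -GFs in co-culture alone. The simulated noise was independent between arrays, so it held no shared deviation of same-numbered arrays. Normalization, the detection filter, probe choice, the replicate block and the motif matching were not tested in this way. The values of 1 member are not reported here.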

Additional observations from a re-analysis of the deposited data

Results flagged for a closer look

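In 3 genes the response to a growth factor differed between co-cultures and PA6 cells by the test of the difference itself (limma). The FGF2 response of COX7A1 was 1.4 higher on the log2 scale in co-culture (SE 0.347, adjusted p = 0.0171), and it kept its call under each alternative in which it was tested, between 1.19 and 1.62. It was higher with FGF2 in 3 of 3 numbered sets of co-culture wells. In PA6 cells the gene was below background in both groups, so no response could be measured there. The value of 1.4 is therefore no measured size of a difference in response. The FGF2 response of COX4NB, a subunit of the membrane protein complex of the endoplasmic reticulum and not of the respiratory chain, differed by -0.66 (SE 0.201, adjusted p = 0.0465), between -0.82 and -0.53 over the alternatives. The BMP4 response of COX8B differed by -1.93 (SE 0.336, adjusted p = 0.0211), between -2.22 and -1.07, but the gene was undetected on all co-culture arrays and on 2 of 3 PA6 -GFs arrays, so this value is no measured size of a difference in response. The groups hold 3 arrays each, so no array was tested as an outlier.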

How the results depend on the processing

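Of 179 recomputed counts of called members, 118 stayed within 1.5 times the reported count. The count for ES/PA6 against PA6 without growth factors, 56, ranged from 48 to 53 with 1 array left out and was 60 with a replicate block shared by both culture types, a setting added after seeing the data, and it left that bound only with the fold limit (15). For FGF2 in co-culture, 1 became 4 under quantile normalization, spline and median scaling, 5 with the replicate block, 3 with the shared block, 6 with a robust trended fit and 1 to 2 without single arrays. For BMP4 in co-culture, 0 became 1 with quantile or spline normalization and 2 with the replicate block, and stayed 0 without single arrays. For FGF2 in PA6 cells, 5 became 9 (quantile), 8 (spline), 8 (detection on all 18 arrays), 9 (replicate block), 8 (shared block), 3 (PA6 arrays alone), 10 (robust trended fit), 10 (array weights), 0 (fold limit) and 2 to 6 without single arrays. For BMP4 in PA6 cells, 1 became 0 with detection on all arrays, since COX8B was then not tested, and 2 with either replicate block or the robust fit, and stayed 1 without single arrays. For FGF2 against BMP4 in co-culture, 0 became 2 (quantile, spline, robust fit), 9 (median scaling, all higher with FGF2), 1 (detection on all arrays), 3 (replicate block), 1 (shared block) and 0 to 1 without single arrays. For FGF2 against BMP4 in PA6 cells, 3 became 7 (quantile), 8 (spline), 7 (detection on all arrays), 9 (replicate block), 8 (shared block), 5 (PA6 arrays alone), 9 (robust fit), 8 (array weights), 1 (fold limit) and 2 to 5 without single arrays. For the difference of the FGF2 responses, 2 became 4 (quantile), 5 (median scaling), 7 (either replicate block), 7 (robust fit), 4 (array weights), 1 (fold limit) and 1 to 3 without single arrays. For that of the BMP4 responses, 1 became 0 (detection on all arrays) and 2 (either replicate block), and stayed 1 without single arrays. The fold limit is a stricter rule, and PA6 arrays alone or single arrays left out mean fewer samples. The cause of the other shifts was not tested. The share of all genes called moved between settings too. With the replicate block it went from 9.05% to 15.2% for FGF2 in co-culture and from 18.7% to 25.4% for FGF2 in PA6 cells. The counts in this paragraph are not set against that share, so a changed count is no result about the members alone.

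Between culture types, 4 called genes turned direction under median scaling: COX6A1 (-0.01), NDUFA4 (-0.01), NDUFA7 (-0.07) and UQCR (-0.03), none of them called there. Over all alternatives in which they were tested, COX7A1 kept its FGF2 call in co-culture (0.89 to 1.29, adjusted p 0.000603 to 0.0705) and COX8B its BMP4 call in PA6 cells (1.11 to 2.26, adjusted p 7.7e-05 to 0.0086). COX8B passed the filter through the PA6 BMP4 arrays, where it is high, so its kept call is a description and no support. Genes near background have compressed differences, and members without a detected probe could not be judged.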
